A study of Mus musculus with 8 samples.

Results

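Long intergenic noncoding RNAs (lincRNAs) are transcripts that are spliced and polyadenylated like mRNAs, that lie outside protein-coding genes and that hold no long open reading frame. Here they were taken as the rows that the deposited count table types as lincRNA and that had a summed raw count of 80 or more over 8 libraries. The members were thus selected on summed counts. This left 297 members of 5386 lincRNA rows, 1698 of which had any count, and of 54139 rows in all. The rule used the sum over all libraries, so levels are given as a description, while the difference between genotypes was not used by it. The last members inside the limit were Gm43568 with 81 counts and Gm13203 and A430073D23Rik with 80 each, and the first rows outside it were Gm26836 and Gm38948 with 79 each and A430110L20Rik with 78.

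The libraries came from intestinal epithelial cells of mice, 4 from Villin-Cre animals (WT) and 4 from animals with a floxed Rictor gene and Villin-Cre (cKO). All 8 carry Villin-Cre, a driver that is active in the epithelium of the gut, so the controls share the recombinase and lack the floxed Rictor. Rictor defines mTOR complex 2, the form of the mTOR kinase that acts on Akt. The age, sex and number of the mice, the intestinal segment, the copies of the floxed allele and the way the cells were isolated are not known from the labels. Nothing there says that each library is a separate mouse, so the spread behind the p-values is that between libraries and may be technical.

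Some lincRNAs act in the nucleus, such as Malat1 at splicing speckles, Neat1 as the scaffold of paraspeckles and Xist in silencing of an X chromosome. Others act in the cytoplasm, such as Norad, which binds Pumilio proteins. A further kind serves mainly as a precursor, with snoRNAs or microRNAs cut from its introns or exons. Many more carry only a clone or model name and have no known role, and 147 of the 297 members here were named by a Gm number and 96 by a RIKEN clone.

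MicroRNA genes lay inside 13 members on the same strand, and RefSeq gives 31 mature microRNAs for 11 of these hosts. The sequences below are those of the hosts described further on, from RefSeq on GRCm38.p6, with the seed (bases 2 to 8, which pair with targets) in capitals. The first 6 are cut from Mir17hg, the host of the miR-17 to miR-92a cluster that promotes growth. The next are a pair from 4833445I07Rik, then 1 from 6720427I07Rik and 1 from Mir142hg, whose microRNA marks blood cells.
miR-17-5p: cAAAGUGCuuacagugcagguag
miR-20a-5p: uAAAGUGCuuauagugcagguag
miR-18a-5p: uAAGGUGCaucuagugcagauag
miR-19a-3p: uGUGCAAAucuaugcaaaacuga
miR-19b-3p: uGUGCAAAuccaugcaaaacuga
miR-92a-3p: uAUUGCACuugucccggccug
miR-191-5p: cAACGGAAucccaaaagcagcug
miR-425-5p: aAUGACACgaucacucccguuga
let-7d-5p: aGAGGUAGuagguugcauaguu
miR-142a-3p: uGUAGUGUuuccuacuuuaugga
Within the Mir17hg cluster, miR-17-5p and miR-20a-5p share the seed AAAGUGC, and miR-19a-3p and miR-19b-3p share GUGCAAA. These reads come from the host transcript, and mature microRNAs were not measured.

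snoRNA genes lay inside 8 members. Hosts of snoRNAs are often 5′TOP transcripts, which begin with a run of pyrimidines through which mTOR signalling controls the translation of mRNAs, so their start sites are shown. RefSeq start sites were found for 5 of the 8, and the 50 bases around them, 20 before the start and 30 from it on, are printed with the counted run of C and T in capitals. It is the longest stretch of C and T that begins between 3 bases before and 3 bases after the start, with bases further upstream not counted.
Snhg18, chr15:32244633-32244682, minus strand: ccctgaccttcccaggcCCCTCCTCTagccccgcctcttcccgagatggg
Snhg12, chr4:132308658-132308707, plus strand: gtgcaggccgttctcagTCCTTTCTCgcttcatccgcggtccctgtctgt
2700038G22Rik, chr5:23850577-23850626, plus strand: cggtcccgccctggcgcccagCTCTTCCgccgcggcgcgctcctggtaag
9430037G07Rik, chr9:88599214-88599263, minus strand: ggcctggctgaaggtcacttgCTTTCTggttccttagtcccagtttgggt
Dancr, chr5:74093040-74093089, plus strand: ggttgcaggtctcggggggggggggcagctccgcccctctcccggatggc
A run of 6 or more pyrimidines, counted in this way, was found in 4 of these 5, with 9 bases in Snhg18 and Snhg12, 7 in 2700038G22Rik and 6 in 9430037G07Rik, and in Dancr none. In Snhg18 the pyrimidines go on 1 base further upstream than the capitals. The same run was found in 22 of the 150 members with a RefSeq promoter (14.7%), in 9.997% of all 32851 promoters in that table and in 9.62% of the coding ones. The RefSeq start of 9430037G07Rik lay 273 bases from that of the deposited table, and the other 4 were identical to it.

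Levels of lincRNAs were low. Per length, their median was 1.01 FPKM (fragments per kilobase and per library total, as deposited), against 6.40 for protein-coding rows and 1.02 for antisense rows that met the same count limit, and 149 members (50.2%) reached 1 FPKM against 83.6% of coding rows. Together the 297 members took 0.208% of all counts. Malat1 alone held 15.01% of the counts of all members, the 5 most counted held 46.1% and the 10 most counted 57.1%. At the other end, 115 members had fewer than 160 counts over the 8 libraries.

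**Figure D1:**
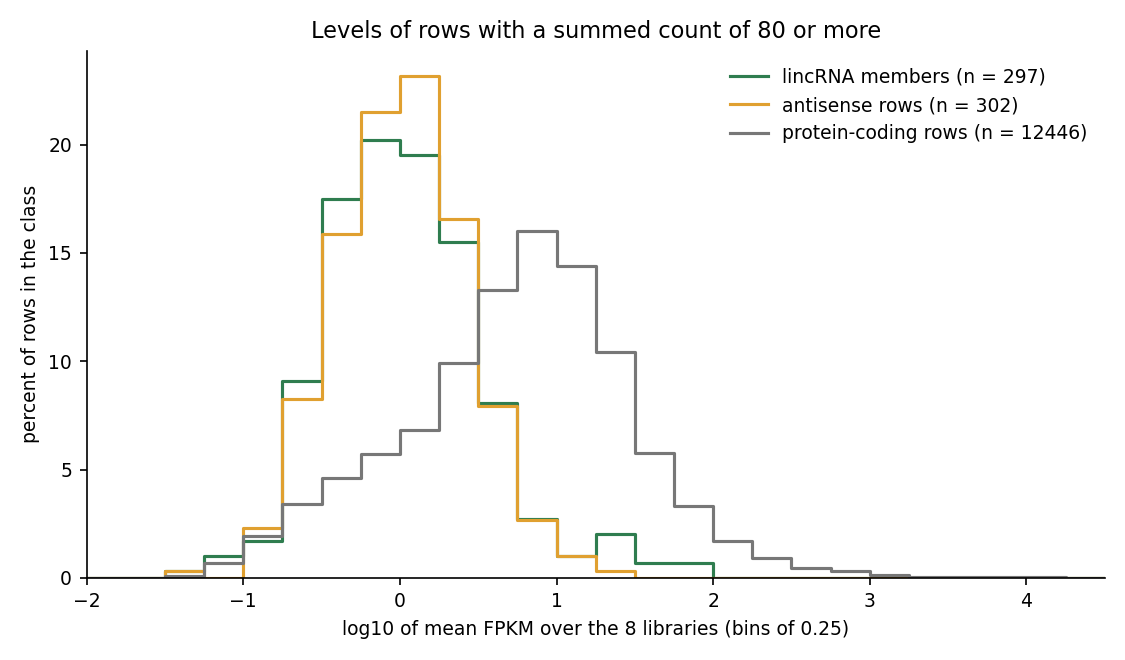
Percent of rows (vertical axis) by log10 of their mean FPKM over the 8 libraries (horizontal axis, bins of 0.25) for lincRNA members, antisense rows and protein-coding rows, each with a summed count of 80 or more. The lincRNA and antisense curves lie over each other with medians of 1.01 and 1.02 FPKM, and the coding curve lies to the right with a median of 6.40.

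The highest mean levels per length were those of Gm3054 (78.0 FPKM, on an annotated length of 265 bases) and Gm10076 (76.8 FPKM). Gm10076 is a single exon of 384 bases, 99.7% of which matches Rpl41, a ribosomal protein gene, at 99.5% identity, so its reads cannot be assigned with certainty. Malat1 followed with 44.5 FPKM, then Epb41l4aos, a snoRNA host, with 32.1, 2900097C17Rik (Norad) with 31.1, AW112010, an RNA of immune cells, with 28.5 and 1700020I14Rik (Cyrano, also called Oip5os1) with 25.7. Tmem250-ps had 21.7 FPKM, Gm42047 19.6 and Gm26917, which ends beside the ribosomal RNA pseudogene Rn18s-rs5 of the RefSeq annotation, 18.1. In all, 7 members had a copy elsewhere that matched 50% or more of their length at 95% identity or more, among them Norad, Gm42047 and Gm28901, a copy of Hnrnpf.

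The members were shorter than coding rows, with a median length of 2006 bases against 4317 and a median of 3 exons against 10, and 51 of them (17.2%) had 1 exon against 2.75% of coding rows. All 297 were found in the GENCODE M21 annotation of GRCm38, where 283 are typed lincRNA and the other 14 are bidirectional-promoter, processed or antisense transcripts. Despite the name, 67 members overlapped a coding gene, 54 of them one on the opposite strand, and 45 did so within exons. The labels do not say whether the counting used strand, so reads of such pairs cannot be told apart. Chromosome 5 held 40 members (13.5%), against 6.39% of all lincRNA rows and 6.47% of coding rows with 80 or more counts.

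Start sites within 1000 bases of that of a coding gene on the opposite strand, pointing away from it, were found for 48 members (16.2%), against 196 of the 5089 other lincRNA rows (3.85%). With a limit of 5000 bases these were 64 members (21.5%) against 6.39%. Such pairs can share a promoter region. Among them were Snhg18 with Sema5a, a guidance receptor (148 bases apart), Snhg10 with Glrx5, a glutaredoxin of mitochondria (409 bases), 6030443J06Rik with Orc5, a subunit of the origin recognition complex (3 bases), and 1110019D14Rik with 2610001J05Rik (8 bases).

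In the 150 members with a RefSeq promoter (250 bases before the start to 50 after it, with the start within 100 bases of the deposited one for 106), short motifs were counted on both strands. The GC box GGGCGG was in 40.7% of the members, against 35.7% of all promoters in the table and 47.7% of coding ones. CCAAT was in 35.3% against 37.4% of all, TATAAA in 13.3% against 13.6%, and the FoxO element GTAAACA in 6 members (4%) against 3.65%. The cAMP response element TGACGTCA was in 8 members (5.33%) against 1.79% of all and 2.31% of coding promoters. These letters are matches and not sites shown to be bound.

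Library totals ran from 15110451 to 18708335 counts, and every pair of libraries differed by more than counting noise. Epithelial markers (Vil1, Epcam and others, 8 of 8 detected) summed to 8974 to 11780 CPM (counts scaled to a common TMM-adjusted library total), and fibroblast and muscle markers to 0.371 to 2.13 CPM. Rictor had 48.2 ± 7.51 CPM in WT libraries and 32.9 ± 9.24 in cKO libraries (SD, n = 4 each), or -0.55 ± 0.20 (SE) on the log2 scale, with adjusted p = 0.921 by edgeR. Its direction is that of the labels, it did not pass the adjusted threshold, and reads outside the floxed part also count. The summed markers of T cells, which lie between epithelial cells, ranged from 173.2 to 575.7 CPM in WT and from 223 to 725.5 in cKO, and all 10 had higher point estimates in cKO with 0 called and 0 at an unadjusted edgeR p under 0.05. Enteroendocrine markers summed to 445.8 to 600.3 CPM in WT and 595.9 to 710.8 in cKO, with 8 of 10 higher, 5 of the 10 at an unadjusted p under 0.05 and 0 called. Enterocyte markers varied more between libraries than the epithelial ones. They summed to 7095 to 18780 CPM in WT, highest in library 3, and to 8673 to 13570 in cKO, highest in library 1. Of these 10 markers, 6 were higher in cKO and 0 were called. Of the 14 marker lists, the fibroblast and muscle list was the only one whose summed level did not overlap between groups, at 0.371 to 1.27 CPM in WT and 1.48 to 2.13 in cKO. The part of these cells in the results below was not tested, and in bulk RNA fewer cells of a type and less RNA per cell cannot be told apart.

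Library 3 of cKO stood apart in the lincRNAs and across all genes. The median member lay 0.241 below its mean over the 8 libraries there (log2 CPM), while the median of all genes was at 0.00973. Scaling keeps that median of all genes near 0 in every library (0.00374 to 0.0163). This library was the lowest of the 8 for 103 of the 294 members tested (35%), against 27.0% of all genes. It was the highest for 19 members (6.46%), against 25.8% of all genes. Members of low GC content were at a median of -0.402 in it and those of high GC content at -0.076. Across all genes its deviation rose by 0.405 log2 units for every 10 points of GC, while the slopes of the other 7 libraries lay between -0.104 and -0.0195. In cKO library 2 the median member lay 0.167 above its mean, and 59 members (20.1%) were highest there.

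**Figure D2:**
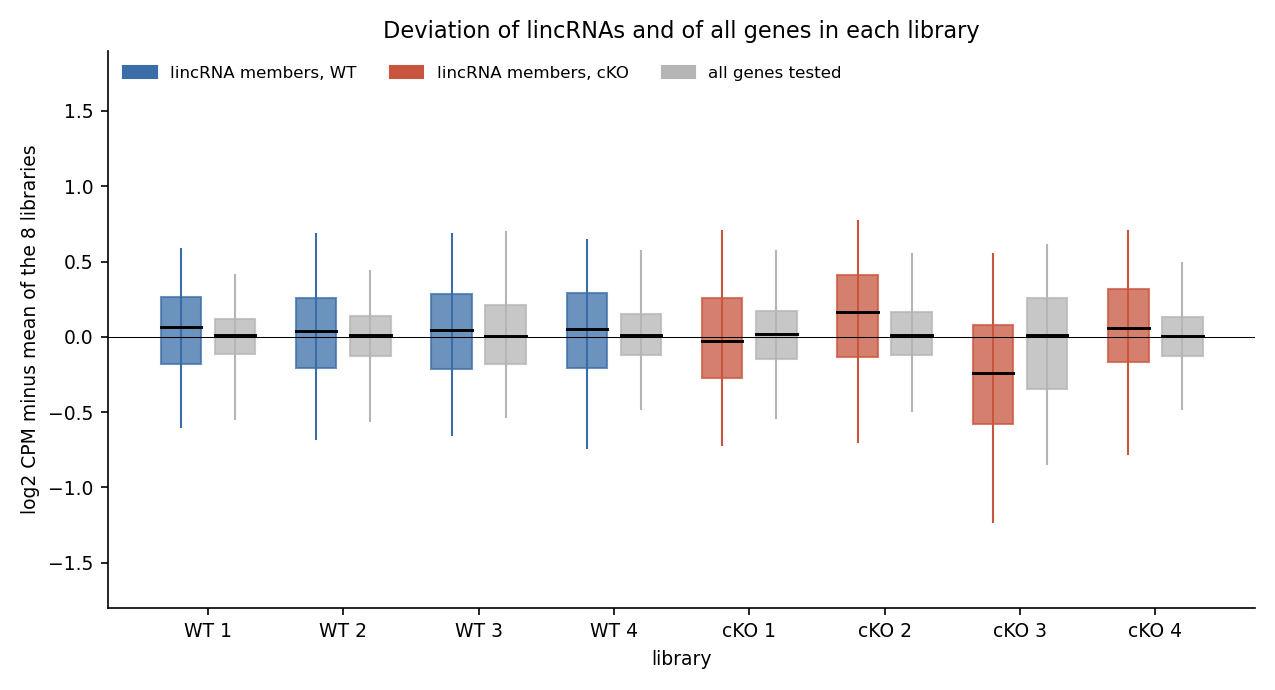
Deviation of log2 CPM from the mean of the 8 libraries (vertical axis) in each library (horizontal axis), for the 294 lincRNA members tested (blue WT, red cKO) and for all 14701 genes tested (grey), with boxes from the 25th to the 75th percentile, lines from the 5th to the 95th and a black bar at the median. The members' box in cKO library 3 is shifted down to a median of -0.241, and in cKO library 2 it is shifted up to 0.167.

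The share of all counts that fell on the members was 0.210%, 0.214%, 0.210% and 0.211% in WT libraries 1 to 4 and 0.201%, 0.233%, 0.172% and 0.217% in cKO libraries 1 to 4. The WT libraries lay within a narrow band and the cKO libraries on both sides of it. The means were 0.2115% ± 0.00197 and 0.2058% ± 0.0259 (SD, n = 4 each), with an exact two-sided permutation p of 0.714. Without cKO library 3 the difference changed sign, from -0.00572 to 0.00548 percentage points (exact permutation p = 0.6). With Malat1 left out the means were 0.1813% and 0.1733% (exact permutation p = 0.6), and without cKO library 3 that difference turned as well, from -0.00799 to 0.0013.

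The comparison of genotypes asked which lincRNAs differ when Rictor is deleted in the epithelium. Of the 297 members 294 passed the filter on low counts. The other 3 were Mir142hg, Gm31363 and Gm17322. The counts of Gm17322 alone were 7, 5, 2 and 18 in WT and 31, 43, 6 and 4 in cKO. By edgeR's quasi-likelihood test with Benjamini-Hochberg adjustment over all 14701 genes, 0 members were called at 0.05, against 2 of all genes (0.0136%). Without the filter all 297 were tested and again 0 were called, against 10 of 27741 rows (0.036%). By DESeq2 1 member was called, AI427809, where that test called 37 of 14682 genes (0.252%).

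At an unadjusted edgeR p under 0.05 there were 10 members (3.40%), close to the 3.9% of all genes. Of these 2 were higher in cKO, where 1.83% of all genes were, and 8 lower, where 2.07% were. The 2 groups of libraries were fully apart for 7 members (2.38%), against 3.21% of all genes, with 3 higher (1.41% of all genes) and 4 lower (1.8%). Point estimates were higher in cKO for 124 members and lower for 170, with a median log2 fold change of -0.051, against 0.00215 over all genes. That balance rested on cKO library 3, since without it 163 were higher and 133 lower with a median of 0.035, and offsets for length and GC content gave 150 and 144 with a median of 0.0034. Single lincRNAs were measured less precisely than most genes, with a median SE of 0.337 on the log2 scale against 0.173 and a median within-group coefficient of variation of 29.7% against 17%.

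**Figure D3:**
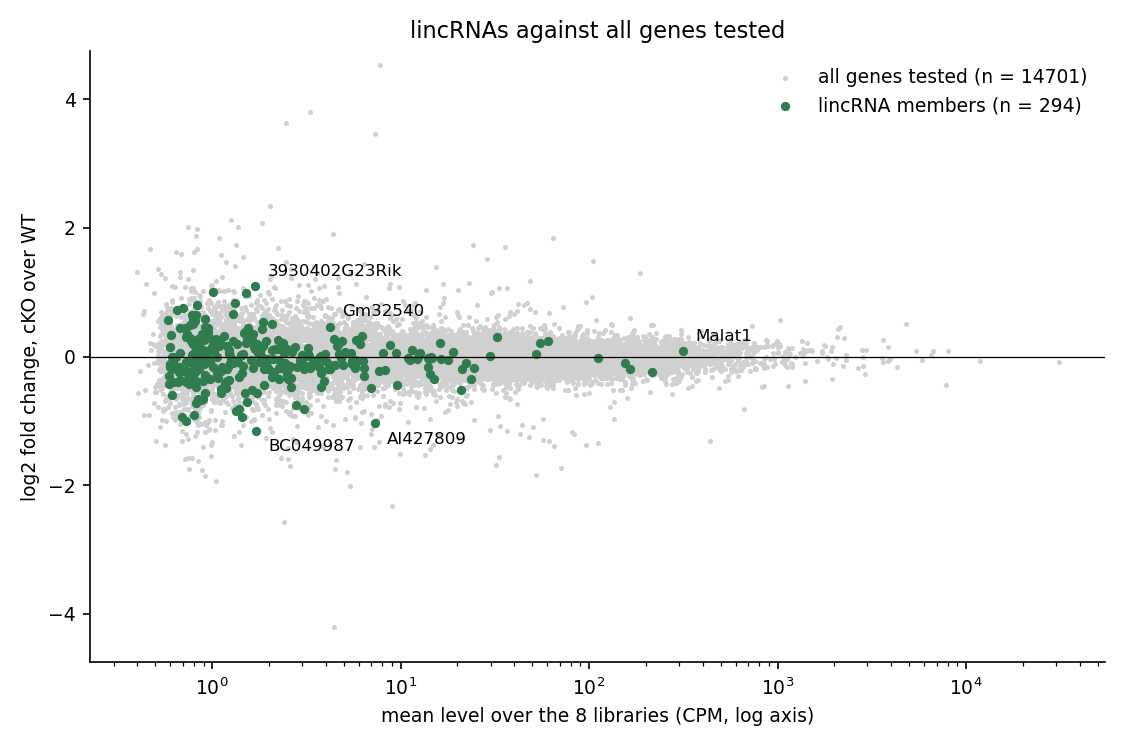
Log2 fold change of cKO over WT (vertical axis) against mean level over the 8 libraries in CPM (horizontal axis, log scale) for the 294 lincRNA members tested (green) among all 14701 genes tested (grey). Members lie on both sides of 0 between -1.15 (BC049987) and 1.10 (3930402G23Rik), and AI427809 stands below the other members of its level.

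AI427809 (ENSMUSG00000086712) is a spliced lincRNA of 4 exons with no role stated here, on chromosome 4 from 53261356 to 53270232 on the minus strand (GRCm38). Earlier results of these data had already shown it, so its values are a description. Its level in WT libraries 1 to 4 was 8.86, 9.29, 12.4 and 8.56 CPM, and in cKO libraries 1 to 4 it was 4.15, 5.02, 4.78 and 5.20 CPM. The cKO libraries were close to each other and did not reach the lowest WT library, and the highest value was in WT library 3. The log2 fold change was -1.03 ± 0.18 (SE), with a 95% interval of -1.43 to -0.63. Its edgeR p was 0.000148 before and 0.374 after adjustment over all genes, and the adjusted p of DESeq2 was 0.000652. A two-sided exact permutation test gave 0.0286, the minimum for 4 libraries against 4. Groups that do not overlap always give this minimum, so it adds nothing to the values above. Over 21 fits the log2 fold change lay between -1.09 and -0.75 and the adjusted p between 0.000652 and 0.846. The nearest coding start site, 110337 bases away on the same strand, was that of Abca1, a cholesterol exporter, with 15.01 ± 12.6 CPM in WT libraries and 10.1 ± 4.002 in cKO libraries (SD, n = 4 each), or -0.57 ± 0.55 on the log2 scale.

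Both members that were higher at an unadjusted p under 0.05 lay downstream of Irs2, on its strand of chromosome 8. Irs2 encodes a docking protein of the insulin receptor, and it had 53.4 ± 7.48 CPM in WT libraries and 91.4 ± 10.8 in cKO libraries (SD, n = 4 each), or 0.77 ± 0.13 on the log2 scale (adjusted p = 0.276 by edgeR). From the end of Irs2 to 150 kb past it the table has 7 lincRNA rows, all on the Irs2 strand, 2 of which are members. The promoters of these 2 members are shown from RefSeq, 250 bases before the start to 50 after it, with CCAAT in either direction in capitals.
3930402G23Rik, chr8:10928408-10928707, minus strand: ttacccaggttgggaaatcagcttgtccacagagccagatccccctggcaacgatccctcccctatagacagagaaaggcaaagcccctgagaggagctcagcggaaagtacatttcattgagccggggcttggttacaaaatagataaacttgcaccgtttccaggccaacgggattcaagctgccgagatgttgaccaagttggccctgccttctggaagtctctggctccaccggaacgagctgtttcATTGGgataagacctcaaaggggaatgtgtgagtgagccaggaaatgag
Gm32540, chr8:10866228-10866527, minus strand: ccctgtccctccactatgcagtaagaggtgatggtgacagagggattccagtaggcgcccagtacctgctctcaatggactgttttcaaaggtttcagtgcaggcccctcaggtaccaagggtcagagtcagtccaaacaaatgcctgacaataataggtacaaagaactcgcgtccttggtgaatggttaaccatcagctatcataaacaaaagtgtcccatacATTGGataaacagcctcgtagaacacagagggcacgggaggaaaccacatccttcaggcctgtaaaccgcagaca
Each held 1 CCAAT match in the reverse direction, and neither held GTAAACA or GGGCGG. Only these exact letters were counted, so stretches that differ by 1 base, such as ATAAACA in Gm32540, were not. Their RefSeq starts lay 239 and 91 bases from the deposited ones.

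3930402G23Rik, 56.0 kb past the end of Irs2, had 1.17, 1.22, 1.24 and 0.673 CPM in WT libraries 1 to 4 and 2.90, 2.07, 3.60 and 0.642 CPM in cKO libraries 1 to 4. The groups overlapped because cKO library 4 lay below every WT library, while cKO libraries 1 to 3 all lay above every WT library. The lowest WT library was also library 4. The log2 difference was 1.10 ± 0.45 (SE), with adjusted p = 0.921 by edgeR, and ranged from 0.80 to 1.41 when single libraries were left out 0.27 with sample quality weights and 0.32 on log2(FPKM + 1).

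Gm32540, 118.5 kb past the end, had 3.71, 3.59, 3.21 and 3.67 CPM in WT and 4.09, 5.97, 4.16 and 5.39 CPM in cKO. All 4 cKO libraries were above all 4 WT libraries, by a small margin for cKO libraries 1 and 3. The log2 difference was 0.46 ± 0.21 (SE), with adjusted p = 0.921 by edgeR, and stayed between 0.31 and 0.55 in 21 fits. Of the rows between, chosen after their values were seen, the lincRNA Gm44955 (36.8 kb past the end) had 1, 2, 2 and 3 counts in WT and 6, 11, 8 and 4 in cKO, too few to pass the filter. The lincRNA B930025P03Rik, between both members, had 2, 5, 2 and 2 counts in WT and 4, 5, 4 and 1 in cKO, and the other 3 lincRNA rows had 1 to 5 counts in all. On the opposite strand the pseudogene Gm45042 had 0 counts in each WT library and 4, 8, 1 and 2 in cKO. An assembled row without a name, also on that strand and past Gm32540, had 278, 251, 186 and 151 counts in WT and 463, 188, 280 and 230 in cKO, groups that overlap, with a log2 fold change of 0.48 ± 0.26. A further unnamed row past Gm32540, on the Irs2 strand, had 20, 20, 11 and 16 counts in WT and 46, 33, 11 and 19 in cKO. Its groups overlap as well, with a log2 fold change of 0.76 ± 0.42. Use of strand in the counting is not recorded, so reads of these rows cannot be assigned to a strand with certainty. Whether these reads belong to separate RNAs or to transcription that runs on from Irs2 was not tested.

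**Figure D4:**
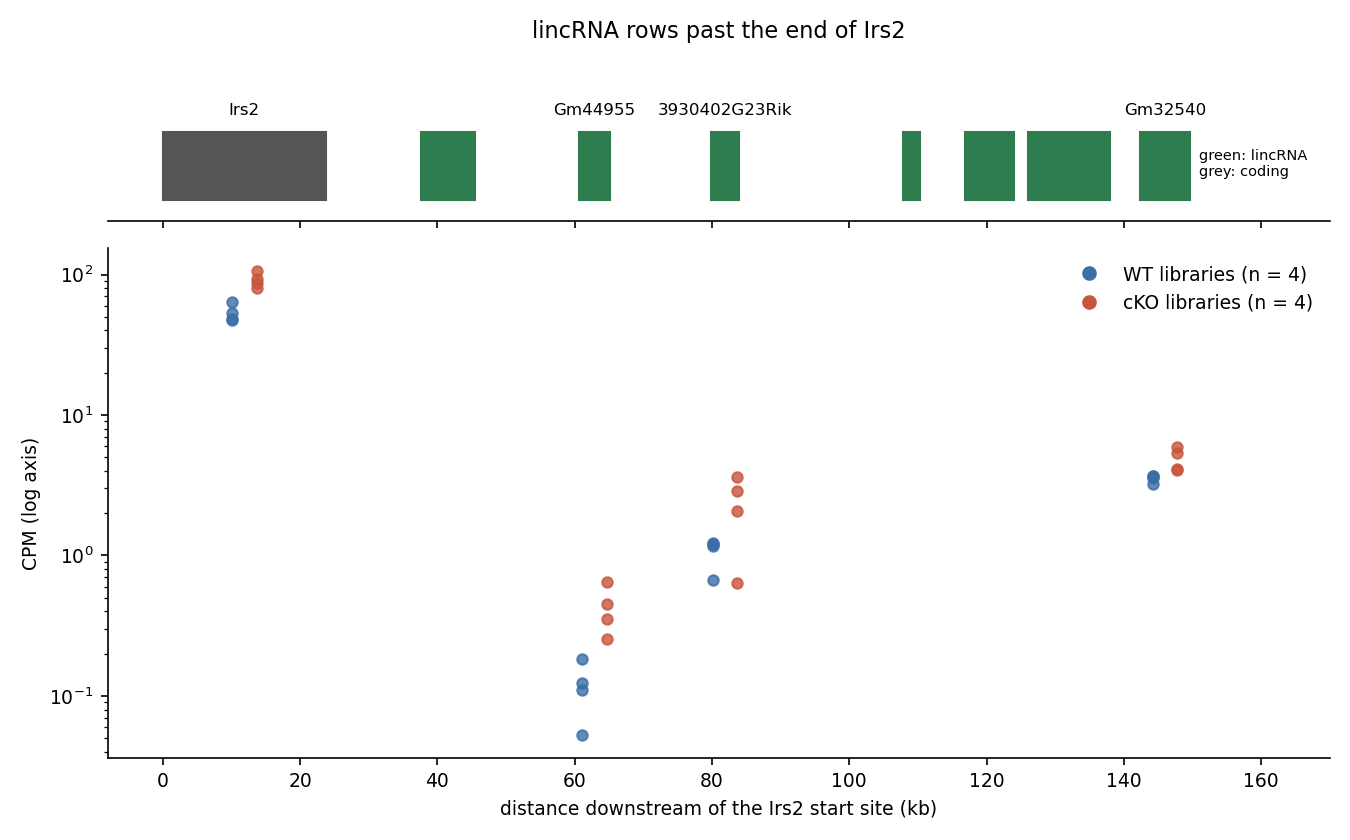
Top: coding (grey) and lincRNA (green) rows of the table by their distance downstream of the Irs2 start site in kb. Bottom: CPM (vertical axis, log scale) of Irs2, Gm44955, 3930402G23Rik and Gm32540 in each library, with WT in blue and cKO in red at the middle of each row. The cKO points lie above all WT points for each of these except 3930402G23Rik, where cKO library 4 lies at 0.642 CPM, just below the lowest WT library at 0.673.

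The other 5 members whose groups did not overlap had smaller differences or levels, and none was called. 2310001H17Rik, a lincRNA of 7 exons on chromosome 6, had 25.1, 26.4, 26.6 and 27.8 CPM in WT and 20.5, 23.5, 18.2 and 21.4 in cKO, which is -0.34 ± 0.11 (SE) on the log2 scale (adjusted p = 0.921 by edgeR). The WT libraries were tight and cKO library 3 was the lowest, and with length and GC offsets the value was -0.17. Its nearest coding gene, Cd69, an activation marker of lymphocytes, was at 0.890 CPM in WT and 0.804 in cKO.

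1810008I18Rik on chromosome 7 had 1.64, 2.16, 1.79 and 1.47 CPM in WT and 1.01, 1.06, 0.618 and 1.35 in cKO, which is -0.81 ± 0.30 (SE) on the log2 scale (adjusted p = 0.921 by edgeR). The log2 value ran from -0.97 to -0.28 over 21 fits, with the smallest size on log2(FPKM + 1). The closest values were 1.47 in WT library 4 and 1.35 in cKO library 4. Its nearest coding gene, Pcsk6, a proprotein convertase 58623 bases away on the same strand, went the other way, with 10.5 ± 4.92 CPM in WT libraries and 23.02 ± 5.21 in cKO libraries (SD, n = 4 each), or 1.13 ± 0.35 on the log2 scale (adjusted p = 0.921 by edgeR).

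4833445I07Rik, the single-exon host of miR-191 and miR-425 on chromosome 9, had 1.17, 1.55, 1.79 and 1.53 CPM in WT and 1.896, 2.36, 2.08 and 2.44 in cKO. Every cKO library was higher, by 0.54 ± 0.25 (SE) on the log2 scale (adjusted p = 0.921 by edgeR), and by 0.28 on log2(FPKM + 1). It starts 99 bases from Ndufaf3, an assembly factor of respiratory complex I, which was at -0.03 ± 0.12. Tmem250-ps on chromosome 2 had 50.6 ± 3.70 CPM in WT libraries and 58.6 ± 3.95 in cKO libraries (SD, n = 4 each), or 0.21 ± 0.10 on the log2 scale (adjusted p = 0.921 by edgeR). The log2 value was 0.093 with length and GC offsets and 0.14 without both libraries 3. 1110019D14Rik was at 4.43 ± 0.673 and 3.40 ± 0.196 CPM (SD, n = 4 each), a log2 fold change of -0.38 ± 0.20 and -0.19 with the offsets, while 2610001J05Rik, which starts 8 bases away, was at -0.005.

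**Figure D5:**
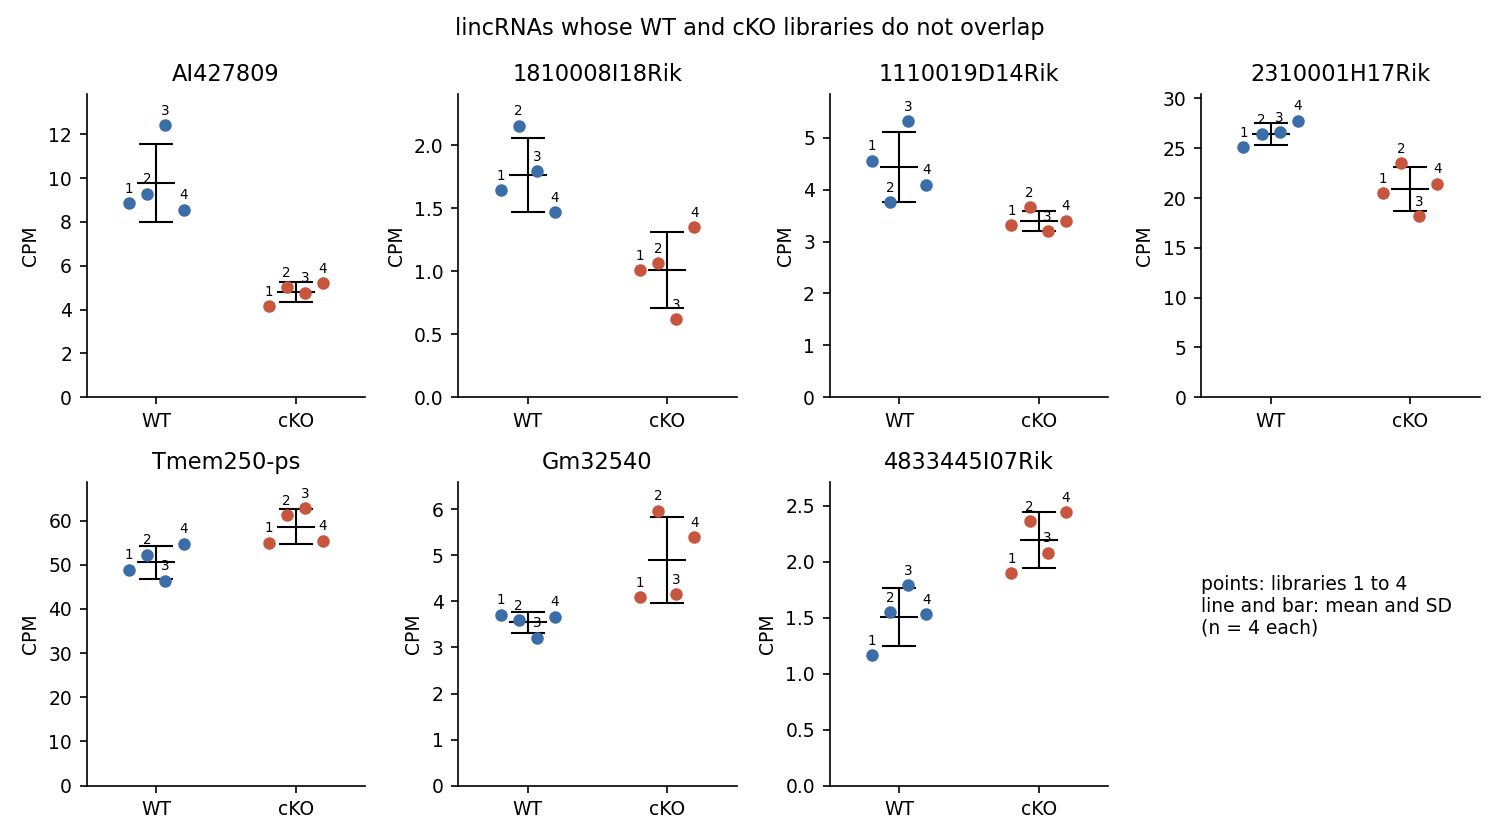
CPM (vertical axes, from 0) in WT and cKO libraries 1 to 4 for the 7 lincRNAs whose groups do not overlap, with the mean and SD (n = 4 each) as a line and bar. The gap between groups is widest for AI427809, with the lowest WT library at 8.56 CPM and the highest cKO library at 5.20.

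The remaining members with an unadjusted p under 0.05 overlapped between groups, and each had an edgeR adjusted p of 0.921. BC049987, which starts 995 bases from Treh, the brush border trehalase, had 3.77, 3.37, 0.742 and 1.59 CPM in WT and 1.07, 0.827, 1.41 and 0.963 in cKO. Its WT libraries differed widely among themselves, with WT library 3 below every cKO library and the other WT libraries above every cKO library. The log2 fold change of -1.15 ± 0.46 (SE) moved between -1.44 and -0.83 when single libraries were left out, and Treh was at -0.13 ± 0.34. AI463229 went from 1.902 ± 0.725 to 0.996 ± 0.341 CPM, Gm33091 from 3.91 ± 1.17 to 2.22 ± 1.04, 6430710C18Rik from 1.73 ± 0.289 to 0.959 ± 0.433 and Gm16386 from 1.046 ± 0.225 to 0.553 ± 0.202 CPM (SD, n = 4 each). Their log2 fold changes lay between -0.94 and -0.81. On log2(FPKM + 1), where changes of weakly expressed genes come out too small, AI463229 was at -0.31, 6430710C18Rik at -0.31, Gm16386 at -0.32 and BC049987 at -0.52. The nearest coding genes of AI463229, Gm33091, 6430710C18Rik and Gm16386, which are Rreb1, Cradd, Sp3 and Zfp945, were at 0.015, -0.058, -0.22 and -0.24.

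Of the 71 symbols in a list of known lincRNAs, 64 were in the table and 20 were members. Of these 20, 6 had higher and 14 lower point estimates, with a median log2 fold change of -0.061, against -0.051 over all members and 0.00215 over all genes, and 0 were called by edgeR. AI427809, which was on the list because earlier results had shown it, was the 1 with an unadjusted p under 0.05.

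Malat1 had 286.6, 311.2, 350.9 and 269.8 CPM in WT and 292.0, 361.1, 276.2 and 365.0 in cKO. The libraries of both groups covered the same range, and its log2 fold change was 0.087 ± 0.13 (SE; 95% interval -0.20 to 0.38). Neat1 had 129.5, 209.2, 244.5 and 120.1 CPM in WT and 258.5, 152, 88.99 and 118.2 in cKO, a spread of more than 2-fold within each group. Its log2 fold change was -0.19 ± 0.36 (95% interval -0.996 to 0.622), and it lay between -0.55 and 0.20 over 21 fits. Cyrano was at 234.6 ± 14.96 and 197.7 ± 47.3 CPM (SD, n = 4 each), with cKO library 3 lowest at 127.8, and Norad at 159.6 ± 14.2 and 149.3 ± 29.98, with cKO library 3 lowest at 111.0.

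The X inactivation centre was covered by 3 members. Xist had 0.934 ± 0.384 CPM in WT libraries and 0.910 ± 0.727 in cKO libraries (SD, n = 4 each), between 0.237 and 1.65 CPM over the 8 libraries, and its exons overlap the coding row Gm26992 by 431 bases. Its activators Jpx, at 3.87 ± 0.460 and 3.48 ± 1.12 CPM, and Ftx, at 6.46 ± 1.56 and 6.14 ± 2.60 CPM, overlapped between groups as well. Ftx hosts miR-421 and miR-374b.

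Lockd, which lies downstream of the cell cycle inhibitor Cdkn1b, was at -0.068 ± 0.23 (log2 fold change and SE) and Cdkn1b at -0.021 ± 0.11. Pvt1, the neighbour of the growth regulator Myc, had 0.646 ± 0.207 CPM in WT libraries and 0.641 ± 0.286 in cKO libraries (SD, n = 4 each), where Myc was at 81.2 ± 5.76 and 103.5 ± 9.31 CPM (log2 difference 0.35 ± 0.10, adjusted p = 0.921 by edgeR). Dubr was at -0.48 ± 0.30, Miat at -0.42 ± 0.42 and Bvht, first described in heart development, at 0.51 ± 0.45, each on fewer than 2 CPM in every library.

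Of the 22 members that hold a small RNA gene, 21 were tested, and their log2 fold changes lay between -0.44 and 0.66 with 0 called. Mir17hg had 11.5, 12.9, 10.6 and 9.23 CPM in WT and 13.6, 15.5, 7.14 and 11.4 in cKO, with the lowest and the highest value both in cKO, and its log2 fold change was 0.10 ± 0.22 (SE). 6720427I07Rik, the host of let-7d, was at 0.093 ± 0.29, E130102H24Rik, the host of miR-101a, at -0.086 ± 0.37 and Gm16863, the host of miR-7680, at 0.66 ± 0.33.

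The snoRNA hosts showed no common direction. Snhg12, which holds Snora16a, Snora44, Snora61 and Snord99, had 11.5, 12.3, 8.84 and 11.4 CPM in WT and 10.6, 14.4, 8.54 and 9.63 in cKO, a log2 fold change of -0.027 ± 0.19 (SE). Snhg18, the host of Snord123, was at 0.054 ± 0.23, 2700038G22Rik, the host of Snord93, at 0.17 ± 0.23, 9430037G07Rik at -0.24 ± 0.31 and Dancr, the host of Snora26, at 0.012 ± 0.48. Snhg6, the host of Snord87, had 17.5, 18.4, 14.2 and 17.1 CPM in WT and 12.4, 13.4, 9.78 and 17.4 in cKO, a log2 fold change of -0.34 ± 0.18 that was -0.22 without cKO library 3. It overlaps an exon of Mcmdc2 by 127 bases. Epb41l4aos was at -0.023 ± 0.15 and 2010110G14Rik at -0.056 ± 0.43. Snhg20, named as a snoRNA host gene, holds miR-6516 and a scaRNA by the table and was at 0.20 ± 0.16.

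Values of AW112010 and Mir142hg, members known from immune cells, are set beside the T cell markers, a comparison chosen after the values were seen and not tested. AW112010 had 28.6, 27.3, 26.8 and 26.2 CPM in WT libraries 3 and 4 and cKO libraries 1 and 3, whose summed T cell markers were 321.5, 575.7, 515.4 and 725.5 CPM. In WT libraries 1 and 2 and cKO libraries 2 and 4 it had 18.98, 17.4, 16.0 and 16.6 CPM with summed markers of 216.6, 173.2, 223 and 253.5. Its log2 fold change between genotypes was -0.10 ± 0.22 (SE). Mir142hg, the host of miR-142a, was at 0.212, 0.442, 0.371 and 0.734 CPM in WT and 0.533, 0.709, 1.52 and 0.449 in cKO, highest in cKO library 3 where the T cell markers were highest. In the other libraries its order differed from that of the markers, with 0.709 CPM in cKO library 2 against 0.533 in cKO library 1.

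The nearest coding genes of the members, 276 in all, were read from the same fit. Of the 225 tested 10 had an unadjusted edgeR p under 0.05 (4.44%, against 3.9% of all genes), and 0 were called. Of these 10, 8 were higher in cKO, where 1.83% of all genes were, and 2 lower, where 2.07% were. Over the 242 pairs in which both were tested, the log2 fold changes of a member and its neighbour had the same sign in 135, and Pearson's r was 0.206. For the 48 divergent pairs the sign was the same in 22 and r was 0.163. These describe pairs measured in the same libraries and are not tests. The 48 divergent members had a median log2 fold change of -0.0096 and the other 246 tested members one of -0.055.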

How the data were processed

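RNA of mouse intestinal epithelial cells was sequenced in 4 WT and 4 cKO libraries. Reads were aligned with Hisat2 and assembled with Stringtie, per the labels' protocols. Versions, the counting program and its use of strand are not recorded there. The authors deposited raw read counts per gene, not normalized, and FPKM for the same rows, with gene lengths. 52142 of the 53706 rows found in GENCODE M21 (97.1%) have the same coordinates there, so positions are on GRCm38. All per-sample columns were used (0 left out).

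The members, the lists and the tests were chosen with earlier results of these data known. Counts were tested over all 14701 genes that passed the default filter with edgeR 4.0.16 in R 4.3.3 (quasi-likelihood F-test, robust, TMM factors, genotype as the single term, Benjamini-Hochberg adjustment, threshold 0.05), after the code was tested on simulated data. CPM uses TMM-scaled totals, and an SE is the absolute log2 fold change over the root of its F statistic. Groups do not overlap where every library of one lies above every library of the other. Alternatives were RLE and upper-quartile factors, no filter, CPM of 1 in 4 libraries, DESeq2 1.42.0, voom with sample quality weights and limma 3.58.1 on log2(FPKM + 0.1) and log2(FPKM + 1), a replicate block, offsets for length and GC content (known for 98.3% of tested genes), leaving out each library or both libraries 3, and sums of 40 or 160.

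Genes named are Rictor, AI427809, the 15 members of smallest p, members of the known lincRNA list, the 10 of highest FPKM, up to 10 non-overlapping members, those at the count limit, small RNA hosts, and coding neighbours of AI427809 and of the members of smallest p or without overlap. Others (Gm17322, Gm31363, Gm28901, Gm44955, B930025P03Rik, Gm45042, Eif2s3y, the unnamed rows and the neighbours Myc, Cdkn1b, Sema5a, Glrx5 and Orc5) were chosen after their values were seen.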

Additional observations from a re-analysis of the deposited data

Results flagged for a closer look

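Of 118 sets of 4 libraries of the same genotype that were checked, 2 held a library that was distant from the remaining 3. Chance gives about 1 in 20 such sets. WT library 4 was the distant one for 3930402G23Rik, with 0.673 CPM where the other WT libraries had 1.17 to 1.24 CPM, so that the gap made up 0.877 of the range. WT library 1 was the distant one for Miat, a lincRNA known from nervous tissue, with 1.38 CPM where the others had 0.618 to 0.734 CPM, and there the gap made up 0.848 of the range.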

How the results depend on the processing

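The number of all genes called by edgeR (2) was 10 without a filter on low counts, 37 with DESeq2, 1 with limma on log2(FPKM + 0.1), 0 on log2(FPKM + 1), 4 without both libraries 3 and from 0 to 3 when single libraries were left out. The number of lincRNAs called was 1 with DESeq2, which gave AI427809 a log2 fold change of -1.03, and 0 in the other 19 alternative fits. The 10 lincRNAs with an unadjusted p under 0.05 became 29 with sample quality weights, where 8.33% of all genes had one, and from 4 (without WT library 1) to 13 when single libraries were left out, with 6 without cKO library 2. The share of counts on lincRNAs changed sign without cKO library 3 (0.00548 percentage points) and without both libraries 3 (0.00504), as did the share without Malat1 when cKO library 3 was left out (0.0013). With single libraries left out, the first ran from -0.0148 to 0.00548 and the second from -0.0154 to 0.0013. The median log2 fold change of the lincRNAs, -0.051, was positive without cKO library 3 (0.035), without both libraries 3 (0.046), with sample quality weights (0.028) and with length and GC offsets (0.0034), and lay between -0.091 and -0.018 in the other fits. The 16 lincRNAs named for their difference kept their sign in each of the 21 fits that tested them (Gm16386 was tested in 20 and Gm17619 in 19). They were chosen for their difference in the main fit, and the other fits use the same libraries, so the kept sign follows largely from the choice. Of the 39 other named lincRNAs, 27 changed sign in 1 or more fits. The causes were not tested.

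With the replicate number as a block, 0 genes and 0 lincRNAs were called and 13 lincRNAs had an unadjusted p under 0.05, and with length and GC offsets added 2 genes were called and 8 lincRNAs had such a p. Deviations of same-numbered WT and cKO libraries correlated at -0.108, 0.108, 0.152 and 0.138, so the numbers were not taken as pairs. WT libraries 1 and 2 correlated best with another number (0.148 and 0.123) and WT libraries 3 and 4 with their own. At these depths 115 lincRNAs had fewer than 160 counts in all, with a median SE of 0.401, and 1 of the 112 tested had an unadjusted p under 0.05.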
